A study of Urosaurus graciosus
Urosaurus ornatus and Urosaurus graciosus and Urosaurus ornatus with 18 samples.

Results

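The 19 genes described here encode nuclear subunits of 2 mitochondrial enzymes of the respiratory system, measured in the livers of hybrid and parental Urosaurus lizards. They were taken from the authors' count table by the start of the gene symbol, with prefixes for the subunits of complexes II to V, and make up 19 of its 22773 genes. Of them, 3 encode succinate dehydrogenase (complex II) and 16 encode ATP synthase (complex V) or its inhibitor protein. No symbol with the prefixes for SDHD, complex III, cytochrome c or complex IV was among the genes analysed, so those proteins are not analysed here and the account covers complexes II and V. The mitochondrially encoded subunits were not analysed here either. All 19 genes passed the filter on low counts.

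Complex II oxidises succinate to fumarate within the tricarboxylic acid (TCA) cycle and hands the electrons to ubiquinone. It is the respiratory complex that is built without any subunit encoded in mitochondrial DNA. ATP synthase lets protons flow back into the matrix through a rotating ring of c subunits, and the rotation drives ATP formation in the F1 head. A peripheral stalk holds the head still against the membrane part. Most ATP synthase subunits are encoded in the nucleus, and a few in the membrane part come from mitochondrial DNA, so the finished enzyme joins products of both genomes. The title of the series names mitochondrial DNA that has passed between the species in the hybrids, and its design text asks about antioxidant gene expression.

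The animals were male lizards held for 48 h at 1 of 2 temperatures before the liver was taken, with 3 animals in each of 6 groups. The groups were hybrids at 40 °C (animals I, K and X) and 36 °C (A, B and D), Urosaurus graciosus at 40 °C (P, Q and T) and 36 °C (J, R and S), and Urosaurus ornatus at 40 °C (L, N and O) and 36 °C (E, F and H). Values in each group are given in the order of those letters. The labels do not give the generation, cross or mitochondrial type of the hybrids used here. Counts are reads assigned to a gene, and levels are CPM, counts scaled to a common library size by TMM, edgeR's trimmed mean of M-values. A gene is called when its adjusted p in edgeR's quasi-likelihood test, corrected over all 15856 genes tested, is under 0.05.

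Libraries held 15780346 counts in U. ornatus O to 35002548 in hybrid A, and a member held 86 to 34166 counts in a library. No pair of replicates agreed within sampling noise (chi-square per degree of freedom of at least 65.6). Scaling factors ran from 0.867 to 1.43, highest in hybrid X (1.43) and U. ornatus O (1.35). The liver label was checked on hepatocyte markers, of which 4 of 6 were in the table. Their summed level was 11227 to 76463 CPM in hybrids at 40 °C, 46329 to 85111 at 36 °C, 30448 to 75273 in U. graciosus at 40 °C, 54438 to 90582 at 36 °C, 11353 to 25100 in U. ornatus at 40 °C and 29222 to 58027 at 36 °C. The low end among hybrids was animal X. Most of each sum was TF and FGB, while the hepatocyte marker TTR was at 0 to 18.8 CPM over all animals. Because the reference for read alignment was Sceloporus undulatus, which belongs to a different genus, a lineage difference in RNA and a lineage difference in how reads align cannot be told apart.

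The genes shared the group with the highest mean more than the group with the lowest. Group and lineage means were ranked on log2 CPM. Hybrids at 40 °C had the highest group mean for 17 of the 19 genes, against 16.2% of all genes tested, and hybrids at 36 °C had the highest for SDHA and SDHB. The lowest group mean belonged to U. ornatus at 40 °C for 10 genes, against 21.2% of all genes, and at 36 °C for 5, against 22.6%. It belonged to U. graciosus at 40 °C for 2, against 14.3%, and at 36 °C for 2, against 13.2%. When libraries were scaled by their totals alone, hybrids at 40 °C still led for 17 genes and U. ornatus at 40 °C led for the other 2. Averaged over both temperatures, the hybrid mean lay above both parental means for 17 genes, against 31.2% of all genes, and below both for none, against 29.3%. ATP5PO and SDHC were the exceptions, with hybrid means of log2 CPM between those of the parents. For ATP5PO the hybrids and U. graciosus were nearly tied, and on the CPM scale their means were 156 and 154. The genes share the same animals, and in several animals most of them deviated in 1 direction, so these counts are not counts of independent events. In whole liver, a change in the cells present and a change in RNA per cell cannot be told apart.

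**Figure D1:**
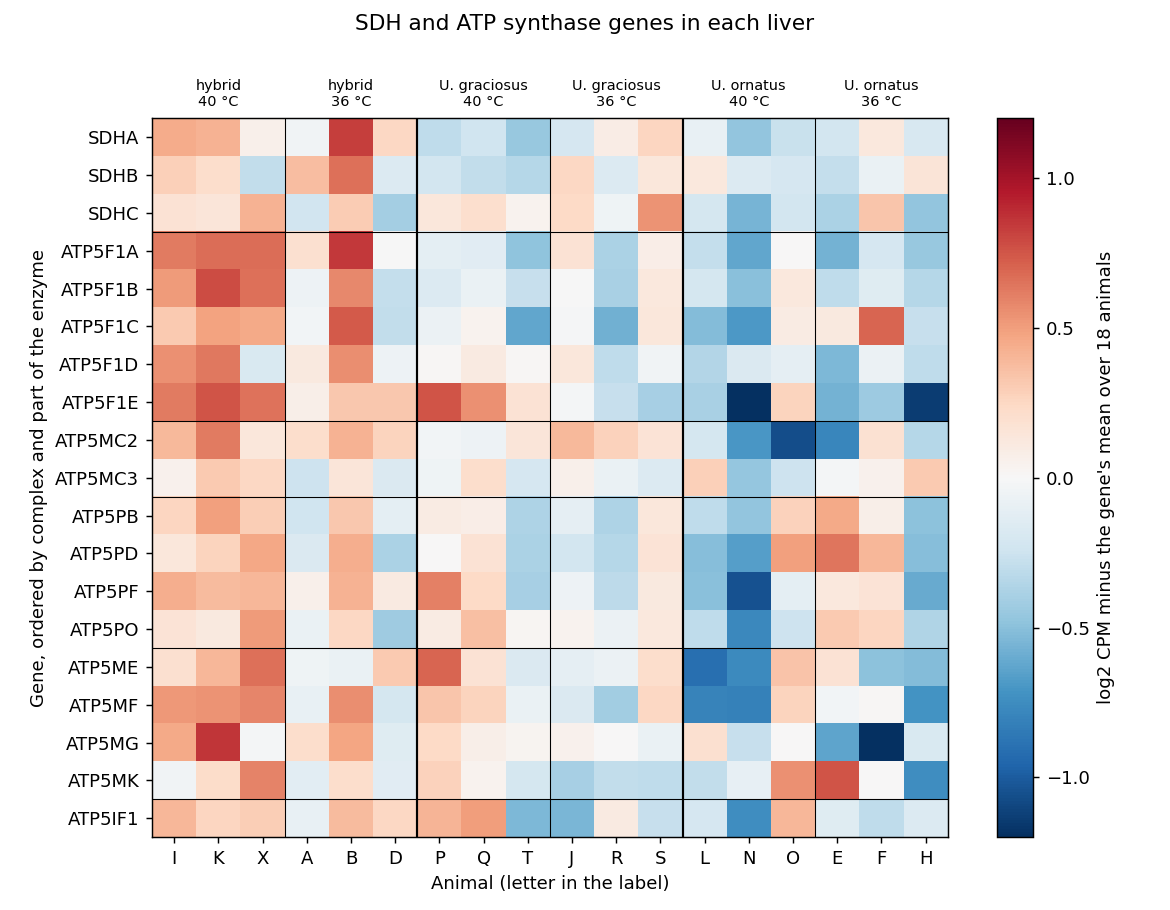
Level of each of the 19 genes (down the page, by complex and part of the enzyme) in each of the 18 livers (across), as log2 CPM minus the gene's mean over all animals; red is above and blue below that mean. Hybrids I, K and X at 40 °C and hybrid B at 36 °C are red for nearly all genes, and U. ornatus N at 40 °C is blue for nearly all.

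The summed level of the 16 ATP synthase genes was 3242, 3643 and 3552 CPM in hybrids at 40 °C and 2386, 3529.6 and 2199 CPM in hybrids at 36 °C. In U. graciosus the sums were 2458, 2514 and 2001 CPM at 40 °C and 2454, 1981 and 2588 CPM at 36 °C, and in U. ornatus 2030.0, 1637 and 2594 CPM at 40 °C and 2326, 2452 and 1914 CPM at 36 °C. All 3 hybrids at 40 °C and hybrid B stood above all 12 parental animals, and hybrids A and D lay within the parental range. The 3 complex II genes summed to 318, 309.9 and 279 CPM in hybrids at 40 °C, 261, 393 and 245 CPM in hybrids at 36 °C, 219 to 244 CPM in U. graciosus at 40 °C, 252 to 324 at 36 °C, 193 to 245 in U. ornatus at 40 °C and 209.9 to 285 at 36 °C. Hybrid B was highest of all animals for this sum, and the other hybrids overlapped the parents.

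**Figure D2:**
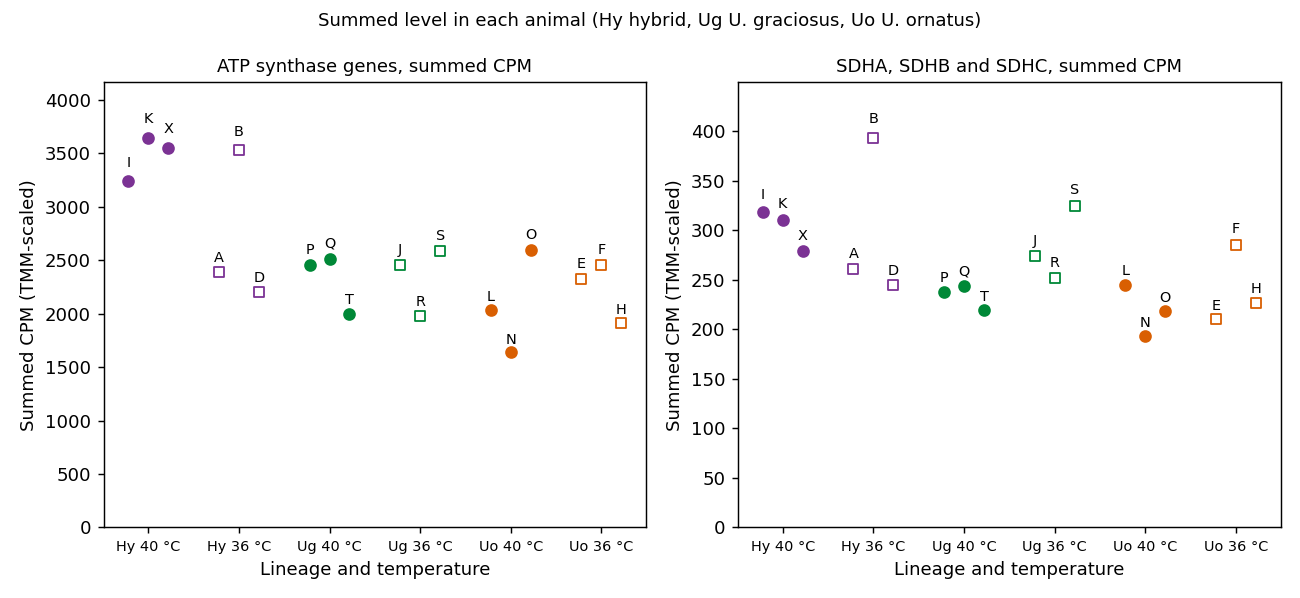
Summed CPM of the ATP synthase genes and of the complex II genes in each animal (points), by group (across), with both axes starting at 0. In the ATP synthase sum the 3 hybrids at 40 °C and hybrid B lie above every parental animal.

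The contrast of hybrids and U. ornatus held the most calls. Averaged over both temperatures, 9 of the 19 genes were higher in hybrids and none was lower, where 18.2% of all genes were called higher and 16.9% lower. All 19 fold changes lay above 0 on the log2 scale (16 with library totals alone, where ATP5MC3, ATP5PD and ATP5MK lay below), with a median of 0.53, against 0.02 over all genes. The called genes came from complex II (SDHA), the F1 head (ATP5F1A, ATP5F1B, ATP5F1D and ATP5F1E), the c ring (ATP5MC2), the peripheral stalk (ATP5PF) and the membrane part (ATP5MF and ATP5MG). For none of the 19 did the 6 hybrids and 6 U. ornatus animals separate fully, where 6.62% of all genes had every hybrid above every U. ornatus animal and 6.82% had every hybrid below. Hybrid B weighed on the count: without it 5 genes were called, and the share of all genes in that fit is not given here. With libraries scaled by totals alone 3 of 19 were called (ATP5F1A, ATP5F1E and ATP5MC2), where 2008 of all 15856 genes were called higher.

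Markers of other cells moved with this contrast. All 6 stellate cell and fibroblast markers were called higher in hybrids than in U. ornatus, with summed levels of 217 to 2822 CPM in hybrids at 40 °C and 213 to 355 at 36 °C, against 69.8 to 136 in U. ornatus at 40 °C and 57.4 to 191 at 36 °C. The high end was hybrid X alone, where the fibroblast marker COL3A1 was at 1710 CPM, against 120 and 96.1 CPM in hybrids I and K. All 3 B and plasma cell markers in the table were lower, and none of the 4 hepatocyte or 6 macrophage markers was called. Of 8 muscle markers tested, ACTA1 was called higher by 1.90 ± 0.54 and RYR1 lower, at -1.93 ± 0.35 (log2, SE), and of 6 endothelial markers KDR and CDH5 were called higher and LYVE1 lower. None of these markers was at 0 throughout a hybrid or U. ornatus group. The muscle marker TNNC2 was at 0 in U. graciosus P, Q and T. Their part in the differences below was not tested.

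In complex II, the flavoprotein SDHA, which carries the succinate oxidation site, was the called gene. SDHA stood at 131, 128 and 100.2 CPM in hybrids at 40 °C and 93.6, 171 and 114 at 36 °C. In the parents SDHA was at 77.8, 81.7 and 70.3 CPM in U. graciosus at 40 °C and 83.5, 102 and 115 at 36 °C, and at 90.6, 69.3 and 79.8 CPM in U. ornatus at 40 °C and 82.7, 105 and 83.9 at 36 °C. The 3 hybrids at 40 °C lay above both parental groups held at 40 °C, while the hybrids at 36 °C overlapped both parents at 36 °C. The difference from U. ornatus was 0.53 ± 0.16 (log2, SE; adjusted p = 0.0172 in edgeR), a 1.45-fold higher mean level, and the call was lost without hybrid B.

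SDHB is the iron-sulfur subunit that passes the electrons on, and SDHC is a membrane anchor at which ubiquinone is reduced. SDHB stood at 83.2, 79.5 and 55.7 CPM in hybrids at 40 °C and 88.4, 108 and 61.2 at 36 °C. In the parents SDHB was at 58.7, 55.9 and 54.0 CPM in U. graciosus at 40 °C and 81.5, 61.0 and 75.3 at 36 °C, and at 74.8, 61.3 and 59.5 CPM in U. ornatus at 40 °C and 56.2, 64.8 and 76.4 at 36 °C. The hybrids overlapped both parents at both temperatures, and the difference from U. ornatus was 0.27 ± 0.16 (log2, SE; adjusted p = 0.191). SDHC stood at 104, 102 and 123 CPM in hybrids at 40 °C and 78.6, 114 and 69.6 at 36 °C. In the parents SDHC was at 101, 106 and 94.99 CPM in U. graciosus at 40 °C and 109, 88.6 and 134 at 36 °C, and at 79.5, 62.5 and 79.0 CPM in U. ornatus at 40 °C and 70.9, 116 and 66.3 at 36 °C. SDHC in U. graciosus overlapped the hybrids at both temperatures, as for SDHB. SDHC differed from the other complex II genes in that U. ornatus at 40 °C lay below both other groups at 40 °C. Its hybrid mean also lay between those of the parents. The SDHC difference between hybrids and U. ornatus was 0.31 ± 0.17 (log2, SE; adjusted p = 0.173).

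In the F1 head, ATP5F1A (alpha) and ATP5F1B (beta) form the ring of subunits in which ATP is made. ATP5F1A stood at 713, 738 and 736 CPM in hybrids at 40 °C and 529, 834 and 462 at 36 °C. In the parents ATP5F1A was at 427, 421 and 333 CPM in U. graciosus at 40 °C and 521, 356 and 490.1 at 36 °C, and at 380.1, 301 and 465 CPM in U. ornatus at 40 °C and 313, 403 and 339 at 36 °C. At each temperature all 3 hybrids were above all 3 U. ornatus animals, and at 40 °C above all U. graciosus animals too. The single overlap between all hybrids and all U. ornatus animals was between hybrid D at 36 °C and U. ornatus O at 40 °C. The difference was 0.86 ± 0.19 (log2, SE; adjusted p = 0.0027 in edgeR), or 1.82-fold, and it was called without each of the 18 libraries in turn.

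ATP5F1B stood at 1076, 1293 and 1195 CPM in hybrids at 40 °C and 720.2, 1123 and 616 at 36 °C. In the parents ATP5F1B was at 671, 712 and 623 CPM in U. graciosus at 40 °C and 751, 576 and 820.3 at 36 °C, and at 651, 531 and 821 CPM in U. ornatus at 40 °C and 608, 681 and 592 at 36 °C. With TMM scaling the hybrids at 40 °C were above every parental animal, whereas hybrids A and D at 36 °C were within the parental range. The difference from U. ornatus was 0.61 ± 0.19 (log2, SE; adjusted p = 0.0197 in edgeR), or 1.52-fold. The ATP5F1B call was lost without hybrid B or U. ornatus N, and with library totals alone.

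The central shaft of F1 is built from ATP5F1C (gamma), ATP5F1D (delta) and ATP5F1E (epsilon), which link the head to the c ring. ATP5F1C stood at 188, 210.4 and 207 CPM in hybrids at 40 °C and 148, 252 and 123 at 36 °C. In the parents ATP5F1C was at 144, 156 and 97.9 CPM in U. graciosus at 40 °C and 149, 101 and 165 at 36 °C, and at 106, 93.9 and 162 CPM in U. ornatus at 40 °C and 164, 246 and 125 at 36 °C. Hybrid B and U. ornatus F were the highest of all animals, and the difference was 0.36 ± 0.23 (log2, SE; adjusted p = 0.243). ATP5F1D stood at 28.3, 29.9 and 17.0 CPM in hybrids at 40 °C and 21.0, 28.5 and 18.5 at 36 °C. In the parents ATP5F1D was at 19.5, 20.8 and 19.5 CPM in U. graciosus at 40 °C and 21.2, 15.7 and 18.7 at 36 °C, and at 15.1, 17.1 and 17.9 CPM in U. ornatus at 40 °C and 13.3, 18.4 and 15.7 at 36 °C. Hybrid X lay among the parents at 40 °C, and at 36 °C the hybrids were just above U. ornatus. The ATP5F1D difference was 0.55 ± 0.16 (log2, SE; adjusted p = 0.0139 in edgeR), or 1.47-fold.

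ATP5F1E had the largest fold change of the 19 genes in this contrast. ATP5F1E stood at 35.6, 38.9 and 36.2 CPM in hybrids at 40 °C and 24.1, 28.8 and 28.9 at 36 °C. In the parents ATP5F1E was at 38.9, 33.6 and 25.9 CPM in U. graciosus at 40 °C and 22.7, 19.0 and 17.5 at 36 °C, and at 17.6, 9.60 and 27.7 CPM in U. ornatus at 40 °C and 15.5, 17.0 and 10.5 at 36 °C. Hybrids were above U. ornatus at each temperature with no overlap, and U. graciosus at 40 °C reached hybrid values. The difference between hybrids and U. ornatus was 0.97 ± 0.21 (log2, SE; adjusted p = 0.00245 in edgeR), or 1.96-fold. ATP5F1A and ATP5F1E were called under each of the 11 other processing alternatives as well as without each library.

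In mammals, ATP5MC2 and ATP5MC3 encode the same mature c subunit from separate genes, with different import sequences, so reads could be divided wrongly between them and their separate levels are uncertain. ATP5MC2 stood at 99.1, 117 and 83.1 CPM in hybrids at 40 °C and 87.8, 101 and 91.4 at 36 °C. In the parents ATP5MC2 was at 74.1, 72.9 and 83.9 CPM in U. graciosus at 40 °C and 99.0, 92.0 and 84.7 at 36 °C, and at 65.5, 46.7 and 36.2 CPM in U. ornatus at 40 °C and 44.0, 86.3 and 59.9 at 36 °C. The hybrids lay above U. ornatus without overlap at each temperature. The ATP5MC2 difference was 0.78 ± 0.17 (log2, SE; adjusted p = 0.00299 in edgeR), or 1.72-fold. ATP5MC3 stood at 194, 233 and 222 CPM in hybrids at 40 °C and 158, 207 and 166 at 36 °C. In the parents ATP5MC3 was at 181, 217 and 163 CPM in U. graciosus at 40 °C and 196, 177 and 167 at 36 °C, and at 229, 136 and 158 CPM in U. ornatus at 40 °C and 184, 195 and 233 at 36 °C. All 6 groups overlapped for ATP5MC3, and its difference of 0.06 ± 0.16 (log2, SE; adjusted p = 0.812) was among the 3 smallest of the 19.

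**Figure D3:**
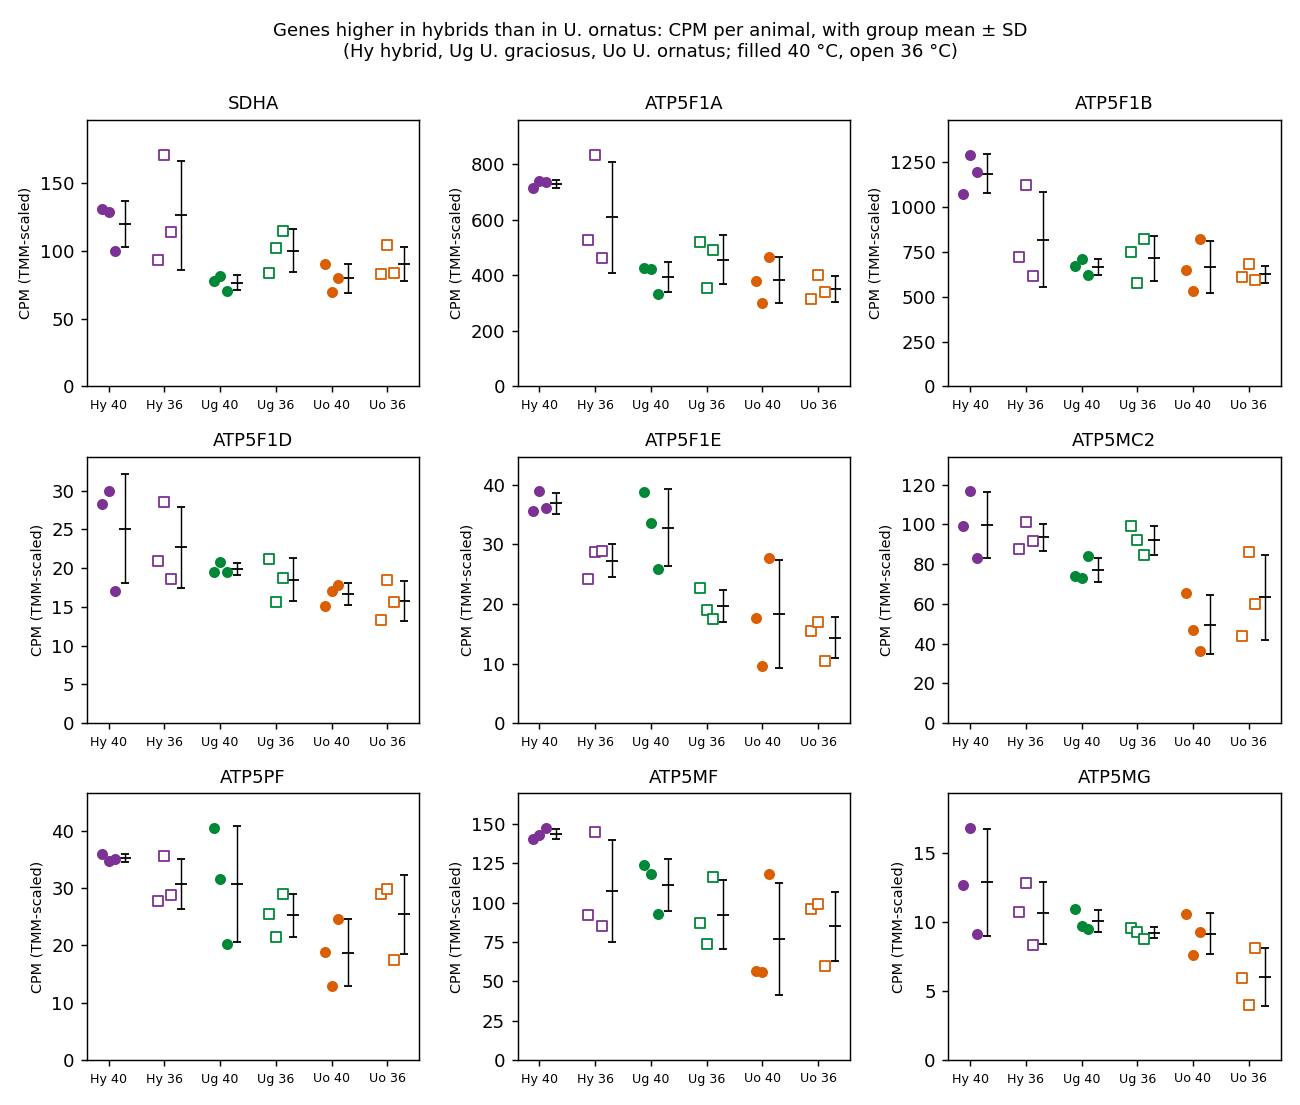
CPM of the 9 genes that were higher in hybrids than in U. ornatus, 1 panel a gene, with a point for each animal and the group mean ± SD (n = 3) beside the points, and axes starting at 0. Filled points are animals at 40 °C and open points animals at 36 °C; ATP5F1A separates hybrids from U. ornatus within each temperature, and ATP5MF overlaps at 36 °C.

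The peripheral stalk is made by ATP5PB (b), ATP5PD (d), ATP5PF (F6) and ATP5PO (OSCP, which binds the top of F1). ATP5PF was the called stalk gene, at 0.59 ± 0.19 (log2, SE; adjusted p = 0.0271 in edgeR), or 1.51-fold. This call was lost without hybrid B, U. ornatus N or U. ornatus H, and with library totals alone. ATP5PF stood at 36.1, 34.7 and 35.2 CPM in hybrids at 40 °C and 27.8, 35.7 and 28.8 at 36 °C. In the parents ATP5PF was at 40.5, 31.6 and 20.2 CPM in U. graciosus at 40 °C and 25.5, 21.5 and 28.9 at 36 °C, and at 18.8, 12.9 and 24.6 CPM in U. ornatus at 40 °C and 29.0, 29.9 and 17.5 at 36 °C. Hybrids separated from U. ornatus at 40 °C and overlapped it at 36 °C.

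ATP5PO stood at 160.5, 156 and 205 CPM in hybrids at 40 °C and 136, 170.5 and 107 at 36 °C. In the parents ATP5PO was at 153, 185 and 146 CPM in U. graciosus at 40 °C and 148, 136 and 157 at 36 °C, and at 116, 84.2 and 121 CPM in U. ornatus at 40 °C and 178, 171 and 112 at 36 °C. U. ornatus was below the hybrids at 40 °C, and at 36 °C its animals E and F were above all hybrids. Over both temperatures the ATP5PO difference was 0.27 ± 0.17 (log2, SE; adjusted p = 0.227). ATP5PB and ATP5PD differed by 0.22 ± 0.20 and 0.09 ± 0.24 (log2, SE), with adjusted p of 0.412 and 0.806. ATP5PB ranged from 176 to 293 CPM in hybrids, 161 to 229 in U. graciosus and 148 to 287 in U. ornatus, and ATP5PD from 79.8 to 144, 80.2 to 118 and 65.8 to 162 CPM in the same lineages.

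The small membrane subunits ATP5ME (e), ATP5MF (f), ATP5MG (g) and ATP5MK (k, also called DAPIT) sit around the proton channel and take part in pairing ATP synthases into dimers. ATP5MF stood at 141, 143 and 147 CPM in hybrids at 40 °C and 92.2, 145 and 85.0 at 36 °C. In the parents ATP5MF was at 124, 118 and 92.7 CPM in U. graciosus at 40 °C and 86.8, 73.5 and 116 at 36 °C, and at 56.4, 55.8 and 118 CPM in U. ornatus at 40 °C and 95.6, 99.3 and 59.8 at 36 °C. With TMM scaling all hybrids at 40 °C were above all parental animals, and at 36 °C the groups overlapped. The ATP5MF difference from U. ornatus was 0.62 ± 0.22 (log2, SE; adjusted p = 0.0374 in edgeR), or 1.54-fold, and 6 of the 18 leave-outs ended that call.

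ATP5MG stood at 12.7, 16.8 and 9.09 CPM in hybrids at 40 °C and 10.7, 12.8 and 8.36 at 36 °C. In the parents ATP5MG was at 10.9, 9.70 and 9.47 CPM in U. graciosus at 40 °C and 9.59, 9.28 and 8.78 at 36 °C, and at 10.6, 7.63 and 9.27 CPM in U. ornatus at 40 °C and 5.97, 3.96 and 8.14 at 36 °C. At 36 °C the hybrids were above U. ornatus, and at 40 °C hybrid X overlapped it. The ATP5MG difference was 0.65 ± 0.19 (log2, SE; adjusted p = 0.0164 in edgeR), or 1.57-fold. ATP5ME differed by 0.54 ± 0.22 (adjusted p = 0.0741) and ATP5MK by 0.02 ± 0.22 (log2, SE; adjusted p = 0.956). ATP5ME ranged from 70.8 to 118 CPM in hybrids, 66.2 to 121 in U. graciosus and 39.8 to 94.7 in U. ornatus, and ATP5MK from 60.1 to 99.5, 50.1 to 80.0 and 39.4 to 111 CPM in the same lineages.

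ATP5IF1, the protein that blocks ATP synthase from running backwards when the proton gradient collapses, was not called. ATP5IF1 stood at 43.9, 39.8 and 40.8 CPM in hybrids at 40 °C and 31.2, 43.2 and 39.4 at 36 °C. In the parents ATP5IF1 was at 44.1, 47.1 and 22.8 CPM in U. graciosus at 40 °C and 22.7, 35.7 and 27.4 at 36 °C, and at 28.8, 19.8 and 43.8 CPM in U. ornatus at 40 °C and 30.1, 26.9 and 29.7 at 36 °C. Hybrids at 36 °C were just above U. ornatus at 36 °C, and at 40 °C they overlapped. The ATP5IF1 difference was 0.41 ± 0.20 (log2, SE; adjusted p = 0.129).

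The hybrid and U. ornatus contrast was also taken at each temperature alone, with 3 animals a side. At 40 °C, 5 genes were called higher (ATP5F1A, ATP5F1B, ATP5F1E, ATP5MC2 and ATP5PF), where 9.65% of all genes were. All 19 fold changes lay above 0 there, with a median of 0.59, and 10 genes had every hybrid above every U. ornatus animal, where 15.8% of all genes did. At 36 °C, 3 genes were called higher (ATP5F1A, ATP5F1E and ATP5MG), where 9.74% of all genes were. There 13 fold changes lay above 0, with a median of 0.34, and 6 genes had no overlap, where 20.9% of all genes had every hybrid above. ATP5F1A was 0.93 ± 0.27 higher at 40 °C (log2, SE; adjusted p = 0.0252 in edgeR) and 0.79 ± 0.27 higher at 36 °C (adjusted p = 0.0494).

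Fewer of the genes were called between the parental species. U. graciosus was higher than U. ornatus in 2 of 19 genes and lower in none, where 16% of all genes were called higher and 16.1% lower (32.2% in all). No member separated all 6 U. graciosus from all 6 U. ornatus animals, where 7.23% of all genes did so upwards and 7.31% downwards. The called genes were ATP5MC2, at 0.59 ± 0.17 (log2, SE; adjusted p = 0.0174 in edgeR), and ATP5F1E, at 0.65 ± 0.21 (adjusted p = 0.0257). That share was no larger than the share over all genes. Of the 19 fold changes, 13 lay above 0 (10 with library totals alone), with a median of 0.21, against 0 over all genes. SDHC was next in complex II at 0.42 ± 0.17 (log2, SE; adjusted p = 0.0749), while SDHA and SDHB differed by 0.04 ± 0.16 and -0.04 ± 0.16. At 40 °C alone, all U. graciosus animals were above all U. ornatus animals for ATP5MC2, ATP5PO, ATP5F1D and SDHC and below them for SDHB, where 18.5% of all genes separated in each direction. At 36 °C, ATP5F1E and ATP5MG separated upwards, where 20.1% of all genes did. No member was called at either temperature alone, where 7.86% of all genes were called higher at 40 °C and 7.78% at 36 °C, and the loss of 1 animal left 1 to 4 genes called. The ATP5F1E call ended without U. graciosus P, U. graciosus J or U. ornatus H. Of the cell markers, 4 of 6 for stellate cells and fibroblasts were called higher in U. graciosus than in U. ornatus. Called lower were 5 of 6 for macrophages and 3 of 3 for B and plasma cells. Of 4 hepatocyte markers tested, 3 had differences above 0, and TF alone was called, higher by 1.45 ± 0.51 (log2, SE; adjusted p = 0.0414 in edgeR). The endothelial markers STAB2 and KDR were called higher and LYVE1 lower, and the muscle marker RYR1 was called lower. Their part in the result was not tested.

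Between hybrids and U. graciosus no member passed the threshold in edgeR, where 0.814% of all genes were called higher and 1% lower. None was called at either temperature alone, where 0.0568% of all genes were called higher at each (0.126% at 40 °C and 0.082% at 36 °C in either direction). None separated all 6 hybrids from all 6 U. graciosus animals, where 0.782% of all genes did so upwards and 1.09% downwards. At an unadjusted p under 0.05 there were 3 of 19, where 2522 of all 15856 genes were. DESeq2 called 3 (ATP5F1A, ATP5F1B and SDHA) and limma voom 2 (ATP5F1A and ATP5F1D). The shares of all genes called in those fits are not given here. The fold change was above 0 for 18 of 19 genes, with a median of 0.28, against 0.03 over all genes, and SDHC was the exception at -0.11 ± 0.17 (log2, SE). ATP5F1A differed by 0.65 ± 0.19 (log2, SE; adjusted p = 0.0966 in edgeR), with a 95% interval of 0.25 to 1.05. SDHA differed by 0.49 ± 0.16 (adjusted p = 0.139; 95% interval 0.15 to 0.83), and ATP5F1B by 0.51 ± 0.19 (adjusted p = 0.183; 95% interval 0.12 to 0.91). At 40 °C all hybrids were above all U. graciosus animals for 6 genes (ATP5F1A, ATP5F1B, ATP5F1C, ATP5PB, ATP5MF and SDHA), where 7.04% of all genes were. At 36 °C this held for ATP5MK and ATP5F1E, where 7.47% of all genes were. ATP5F1C, which did not pass in any contrast, differed by 0.47 ± 0.23 (log2, SE; adjusted p = 0.336).

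Set against the midpoint of the parental means, hybrids were higher in 6 of 19 genes and lower in none, where 9.78% of all genes were called higher and 6.55% lower. The largest fold change of the 19 was that of ATP5F1A at 0.76 ± 0.16 (log2, SE; adjusted p = 0.00511 in edgeR), followed by ATP5F1E at 0.64 ± 0.18 (adjusted p = 0.022), ATP5F1B at 0.56 ± 0.16 (adjusted p = 0.026) and SDHA at 0.51 ± 0.14 (adjusted p = 0.0192). ATP5MC2 was 0.49 ± 0.15 higher (adjusted p = 0.0337) and ATP5F1D 0.43 ± 0.14 higher (adjusted p = 0.0401). With 1 library left out in turn, the ATP5MC2 call held in 7 of 18 fits and the ATP5F1D call in 5 of 18. The ATP5F1D call was also lost with no low-count filter. The midpoint holds the same U. ornatus animals as the contrast of hybrids and U. ornatus, where all 6 genes were called too. All 19 fold changes lay above 0, with a median of 0.41, against 0.03 over all genes. Without hybrid B, ATP5F1A alone stayed called, and without hybrid K 3 genes were called. Library totals alone gave 3, where 1079 of all 15856 genes were called higher. At 40 °C alone ATP5F1A and ATP5F1B were called, at 0.91 and 0.83 on the log2 scale, where 3.78% of all genes were called higher, and at 36 °C alone none was, where 2.54% were. Of the 6 stellate cell and fibroblast markers, 4 were called higher in hybrids here too. The muscle marker ACTA1 was called higher (1.51 ± 0.44), and the plasma cell marker JCHAIN (-1.01 ± 0.32; log2, SE) and the muscle marker RYR1 were called lower. The part of these markers was not tested.

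**Figure D4:**
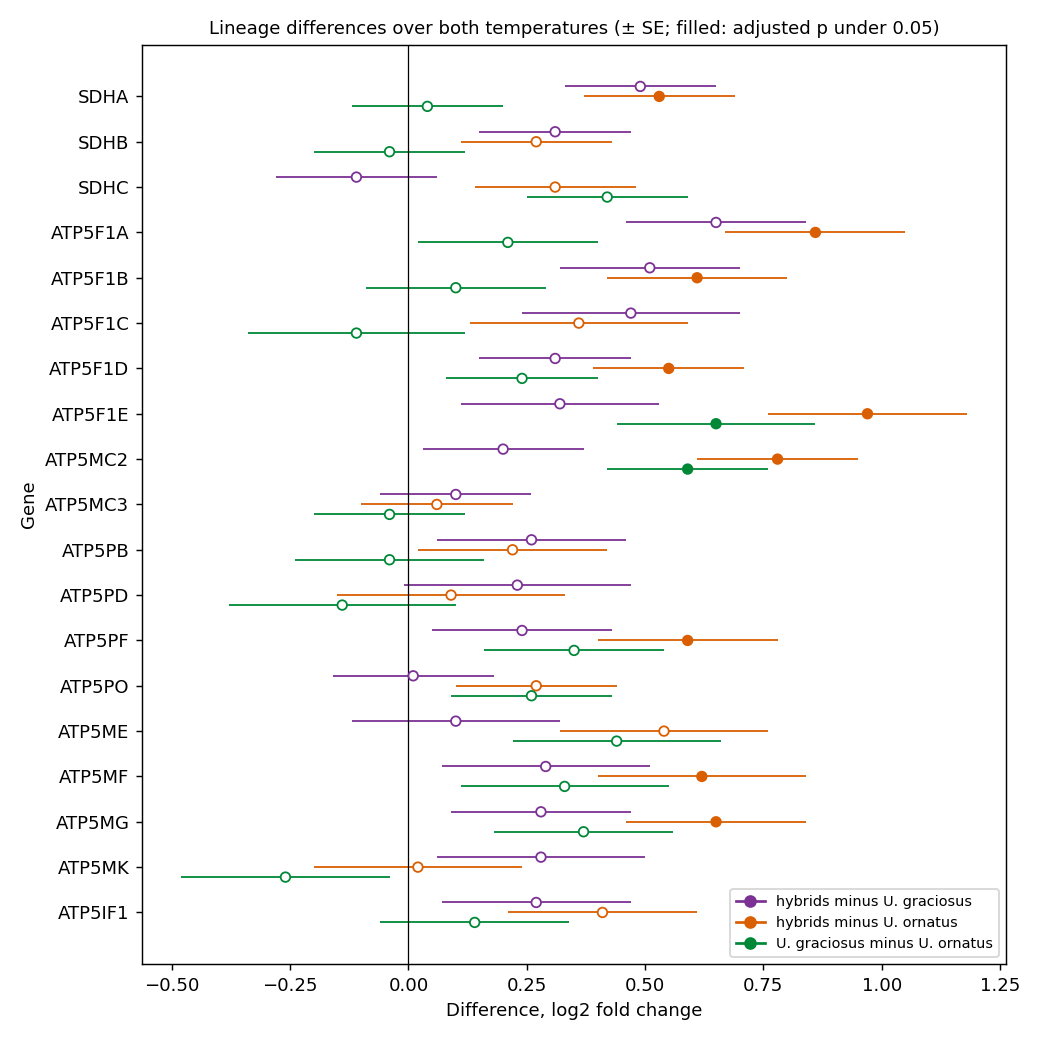
Log2 fold change ± SE of each gene in 3 lineage contrasts averaged over both temperatures (hybrids minus U. graciosus in purple, hybrids minus U. ornatus in orange, U. graciosus minus U. ornatus in green), with filled points for genes past the threshold. With TMM scaling the orange points all lie above 0 (16 of 19 do with library totals alone) and 9 are filled, from 0.53 for SDHA to 0.97 for ATP5F1E.

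Heat, the difference between 40 °C and 36 °C, called none of the 19 genes in any lineage or averaged over lineages. The shares of all genes called in edgeR were 0.996% for the average (0.536% higher and 0.46% lower), 0% in hybrids, 0% in U. graciosus and 0.782% in U. ornatus. DESeq2 and limma voom called none of the 19 either. At an unadjusted p under 0.05 there was 1 member for the average (ATP5F1E), none in hybrids, 1 in U. graciosus (ATP5F1E) and 2 in U. ornatus (ATP5PO and ATP5MG). Of all 15856 genes, 2837, 1239, 968 and 2652 were under that cutoff in the same order. Averaged over lineages the median fold change of the 19 was 0.06, against 0.03 over all genes. It was 0.09 for the ATP synthase genes and -0.21 for complex II. With library totals alone the median of the 19 was 0.28 and that of all genes 0.24, 17 of 19 lay above 0, and SDHA and SDHB were at -0.01 and -0.02.

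In hybrids, 17 of 19 heat differences lay above 0, with a median of 0.29, against 0.04 over all genes. The median was 0.16 without hybrid D and 0.43 without hybrid B, and 0.52 with library totals alone, where that of all genes was 0.24. ATP5F1B differed by 0.54 ± 0.26 (log2, SE; adjusted p = 0.65 in edgeR), with a 95% interval of -0.03 to 1.10. ATP5F1E was the gene whose 3 hybrids at 40 °C were all above the 3 at 36 °C, where 5.11% of all genes separated upwards and 5.76% downwards, at 0.44 ± 0.29 (adjusted p = 0.735). SDHA and SDHB differed by -0.07 ± 0.23 and -0.24 ± 0.22, and SDHC by 0.33 ± 0.24 (log2, SE). Hybrid D at 36 °C carried the most skeletal muscle RNA: the 9 muscle markers in the table summed to 11.4 to 137 CPM in hybrids at 36 °C, 137 being animal D, against 6.85 to 9.94 CPM at 40 °C. Its part in the heat differences was not tested. Animal D had the lowest ATP synthase sum of the 6 hybrids.

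In U. graciosus, 12 of 19 heat differences lay above 0, with a median of 0.07, against 0 over all genes. ATP5F1E differed by 0.73 ± 0.29 (log2, SE; adjusted p = 0.754 in edgeR), with all 3 animals at 40 °C above all 3 at 36 °C, as for ATP5MK. SDHA at -0.39 ± 0.23 and SDHB at -0.37 ± 0.22 had all animals at 40 °C below all animals at 36 °C, and so had ATP5MC2. Over all genes 7.25% separated upwards and 7.45% downwards. In U. ornatus, 6 of 19 differences lay above 0, with a median of -0.15, against 0.03 over all genes. When libraries were scaled by totals alone, 15 of 19 lay above 0 with a median of 0.26. The median of all genes moved to 0.39, so under that scaling the genes stayed below all genes. With TMM, single animals weighed on the direction: 10 of 19 lay above 0 without U. ornatus N, 9 without L and 3 without O. The median ran from -0.26 to 0.03 with 1 library left out. ATP5PO differed by -0.52 ± 0.24 (log2, SE; adjusted p = 0.278 in edgeR) and ATP5MG by 0.60 ± 0.28 (adjusted p = 0.285), with overlapping animals for both, as for all 19 genes, where 12.1% of all genes separated upwards and 11% downwards. Muscle markers summed to 24.8 to 58.2 CPM in U. ornatus at 40 °C, against 15.0 to 18.9 CPM at 36 °C, with RYR1 called higher. RYR1 alone was at 17.0, 13.2 and 40.6 CPM at 40 °C, against 7.1, 3.5 and 4.8 CPM at 36 °C. In animal L the muscle marker ATP2A1 was at 15.8 CPM. Of 8 muscle markers tested, 5 had heat differences above 0 in U. ornatus, so the sum does not stand for all of them. The plasma cell marker JCHAIN was also called higher, by 2.72 ± 0.51 (log2, SE; adjusted p = 0.0285 in edgeR). The hepatocyte sums of U. ornatus, given above, lay lower at 40 °C than at 36 °C without overlap, with 0 of 4 markers called. Of these markers FGB separated the animals by temperature, and APOA1, TTR and TF overlapped. The part of these markers was not tested.

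**Figure D5:**
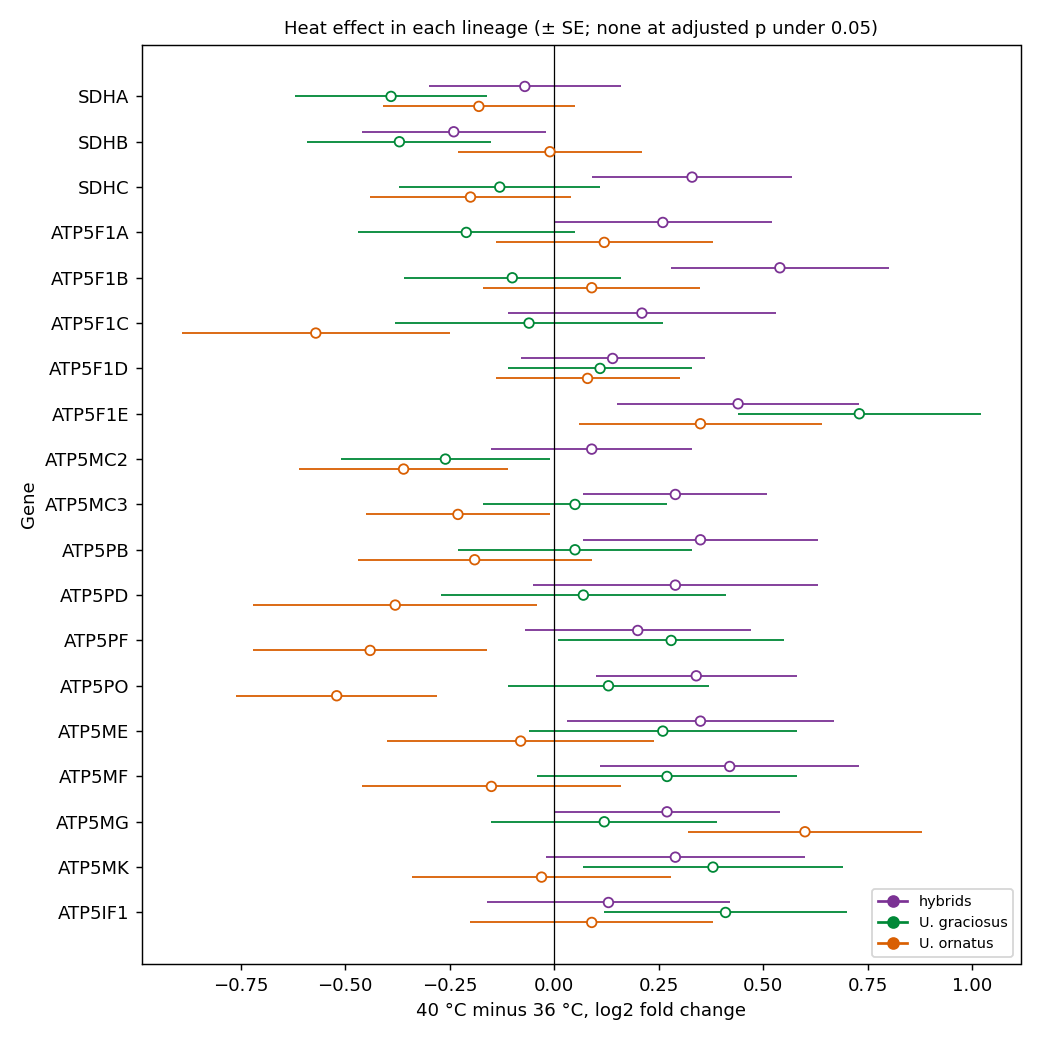
Log2 fold change ± SE of each gene between 40 °C and 36 °C in hybrids, U. graciosus and U. ornatus. All points are open because no gene passed the threshold; most hybrid points lie above 0, and most U. ornatus points lie below it with TMM scaling but above it with library totals alone.

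Whether the heat difference itself depended on lineage was tested by interaction terms, and no member was called in any of the 3. The shares of all genes called were 0% for hybrids minus U. graciosus, 0% for hybrids minus U. ornatus and 0.00631% for U. graciosus minus U. ornatus. Members at an unadjusted p under 0.05 numbered 0, 1 and 0, where 545, 1529 and 1183 of all 15856 genes were. DESeq2 and limma voom called none of the 19. For hybrids minus U. ornatus, 17 of 19 interaction terms lay above 0 (12 with library totals alone), with a median of 0.44, against 0.03 over all genes. ATP5PO had the smallest p, at 0.86 ± 0.34 (log2, SE; adjusted p = 0.454 in edgeR), with a 95% interval of 0.15 to 1.57. For hybrids minus U. graciosus the largest term was ATP5F1B at 0.63 ± 0.37 (95% interval -0.16 to 1.43). Intervals of this width leave differences of both signs for most genes, so 3 animals a group do not show that the lineages responded alike.

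In some animals most of the 19 genes deviated from the group mean in the same direction, and in others they did not. Hybrid B was the highest of the 3 hybrids at 36 °C for 17 of 19 genes, where it was highest for 34.8% of all genes, and its median deviation from the group mean was 0.34 on the log2 scale. U. graciosus T was the lowest of its group for 18 genes, where it was lowest for 40.7% of all genes, at a median of -0.23. U. ornatus O was highest for 13 and U. ornatus N lowest for 14, at medians of 0.32 and -0.32, where 38% and 30.3% of all genes took those places. Hybrid D, U. graciosus R and U. ornatus H were each lowest of their group for 11 genes, where 34.4%, 28.4% and 32.6% of all genes took those places. The genes divided in hybrid X, highest for 6 and lowest for 5, and in U. ornatus E, highest for 6 and lowest for 6. Over all genes the median deviation of every animal was between -0.02 and 0.01. The SD within groups, pooled over the 6 groups, was 0.22 (ATP5MC3) to 0.43 (ATP5PD) on the log2 scale, with a median of 0.32, against a median of 0.47 over all genes. The stalk and membrane genes ATP5PD, ATP5ME and ATP5MK and the shaft gene ATP5F1C were the most variable, at 0.40 to 0.43.

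Because the alpha and beta subunits enter F1 in equal numbers, their transcript ratio was set out by group. The log2 ratio of ATP5F1A to ATP5F1B CPM was -0.70 ± 0.11 in hybrids at 40 °C and -0.43 ± 0.02 at 36 °C (SD, n = 3 each). It was -0.77 ± 0.13 in U. graciosus at 40 °C and -0.66 ± 0.11 at 36 °C, and in U. ornatus -0.81 ± 0.03 at 40 °C against -0.84 ± 0.10 at 36 °C. The ratio is not per length, so it ranks groups and does not compare the genes. Hybrids at 36 °C had the highest mean ratio of the 6 groups with the smallest spread.

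Other genes of the same pathways were counted from lists compiled for the mitochondrion, and their counts are read against the shares of all genes called, 18.2% higher and 16.9% lower for hybrids against U. ornatus. In the contrast of hybrids and U. ornatus, complex I (NADH dehydrogenase), the other entry point for electrons, had 14 of 35 nuclear subunits higher and none lower, with a median of 0.37. NDUFS6 was higher by 1.71 ± 0.25 (log2, SE; adjusted p = 0.000131 in edgeR) and NDUFB10 by 1.50 ± 0.20 (adjusted p = 7.32e-05). The list for the TCA cycle, which complex II belongs to, had 9 of 18 genes higher and 2 lower, with a median of 0.53. That list also holds genes of the pyruvate dehydrogenase complex, such as DLAT and PDHX, so its counts are not of the cycle alone. Among its higher genes was IDH3A, a subunit of the NAD-dependent isocitrate dehydrogenase, at 1.08 ± 0.12 (log2, SE; adjusted p = 1.76e-05 in edgeR). Of 16 assembly factors in the table, 6 were higher and 2 lower. They included SDHAF2, which inserts the flavin into SDHA, at 1.70 ± 0.18 (adjusted p = 1.14e-05), ATPAF2, which helps assemble F1, at 1.02 ± 0.22 (adjusted p = 0.00236), and FMC1, which in yeast is needed for F1 assembly in heat, at 1.80 ± 0.33 (adjusted p = 0.000842).

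SLC25A3, which imports the phosphate that ATP synthase uses, was the called gene of 7 for ATP export and uncoupling, at 1.10 ± 0.19 (log2, SE; adjusted p = 0.000459 in edgeR). Genes of cristae and supercomplexes had 4 of 13 higher and none lower, namely CHCHD3, IMMT, PHB2 and PHB. Of 16 regulators of mitochondrial biogenesis, ESRRA (0.73 ± 0.16), PPARGC1B (1.02 ± 0.26) and NRF1 (0.56 ± 0.19) were among the 4 higher, and SIRT1 was lower at -0.91 ± 0.23 (log2, SE).

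Some of these neighbours separated the parents as well. U. graciosus was above U. ornatus by 1.68 ± 0.18 for SDHAF2 (log2, SE; adjusted p = 1.41e-05 in edgeR), 1.60 ± 0.33 for FMC1 (adjusted p = 0.0021) and 0.99 ± 0.22 for ATPAF2 (adjusted p = 0.00334). In U. graciosus against U. ornatus, 9 of 35 complex I genes were higher and 1 lower, where 16% of all genes were higher and 16.1% lower. In that contrast 6 of 18 genes of the TCA cycle list were higher and 2 lower, and 6 of 16 assembly factors higher and 2 lower. Against the parental midpoint, hybrids were higher in 10 of 35 complex I genes and 7 of 18 genes of the TCA cycle list. They were also higher in 4 of 13 cristae genes and 3 of 16 assembly factors. No gene of the complex I, TCA cycle, cristae and assembly factor lists was called lower there, where 9.78% of all genes were higher and 6.55% lower. Of the biogenesis regulators, ESRRA was called higher there (0.52 ± 0.14) and SIRT1 lower (-0.74 ± 0.20; log2, SE). SLC25A3 was higher there by 0.87 ± 0.16 (adjusted p = 0.00199). Between hybrids and U. graciosus, IDH3A was the called gene of these lists, at 0.67 ± 0.12 (adjusted p = 0.00937). With heat, MICOS13, a subunit of the complex that shapes cristae, was the called gene of these lists, at 0.91 ± 0.13 averaged over lineages (log2, SE; adjusted p = 0.012 in edgeR) and 1.13 ± 0.23 in U. ornatus (adjusted p = 0.0401).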

How the data were processed

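Livers of 18 male lizards were sequenced, 3 in each of 6 groups. Per the labels' protocols, total RNA (TRIzol, then RNeasy columns) went into directional libraries. The authors deposited raw counts per gene. Per the submitters' processing notes, the tools were Trim Galore 0.6.4, STAR, Subread and DESeq2, and the series' design text names the Sceloporus undulatus genome as the alignment target. Build, annotation, strand setting and the handling of multiply matching reads: not given in the sources used here. No genome or sequence table was used, so no positions or sequences are given. Most low values were even (71.8% to 76.4% of counts from 1 to 20), so a count may not equal 1 fragment.

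The 19 genes and the gene lists were chosen with earlier results of these data known. They were fitted within the whole table: edgeR 4.0.16 in R 4.3.3 kept 15856 genes by filterByExpr, scaled libraries by TMM and fitted 1 mean per group over all 18 libraries by robust quasi-likelihood. There were 11 contrasts, each adjusted by Benjamini-Hochberg over all genes tested. Lineage contrasts averaged both temperatures. Log2 CPM used a prior count of 2. The fit was also run on counts simulated from its own estimates of spread. That run met the assumptions of the fit by construction, so it is no evidence for the calls given here. A table entry whose animals do not overlap has every animal of 1 group above every animal of the other. P-values judge a difference between groups against the spread between animals within groups. That spread was estimated over all 6 groups together, with information shared across genes. Named beside the members were up to 4 called genes of each other list and contrast, by p (the values of 1 gene are not reported here); values in every animal stand for members called and for those of a fixed set of 27 respiratory genes that were present, which were 10.

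Alternatives were DESeq2 1.42.0 (median-ratio size factors), RLE factors, no low-count filter, at least 5 CPM in 3 libraries, limma 3.58.1 voom with quality weights, the groups compared alone, counts halved and rounded up, each temperature alone, each library left out, and X, T and O left out together. Scaling by library totals alone was added after seeing the data.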

Additional observations from a re-analysis of the deposited data

How the results depend on the processing

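Counts of called genes among the 19 varied with the processing. For hybrids against U. ornatus 9 were called. Library totals alone gave 3, 36 °C alone 3, 40 °C alone 5, and leaving out 1 library gave 5 (without hybrid B) to 11. For hybrids against the midpoint 6 were called, against 3 with library totals, 10 with voom, 0 at 36 °C alone, 2 at 40 °C alone, and 1 (without hybrid B) to 7 with 1 library left out. For U. graciosus against U. ornatus 2 were called, against 1 with library totals, 4 with voom, 0 at 36 °C alone, 0 at 40 °C alone, 6 without X, T and O together, and 1 to 4 with 1 library left out. For hybrids against U. graciosus none was called in edgeR, 3 in DESeq2 and 2 with voom. Contrasts at 1 temperature had 3 animals a side. The cause of the changes in these counts was not tested. Heat and interaction contrasts had 0 calls under all alternatives run. Of 5757 values of single genes under an alternative, 5415 kept direction and side of the threshold, 79 lost a call, 32 gained one and 231 uncalled values changed sign. No called gene reversed. Library totals moved the median of all genes to as much as 0.39 (heat in U. ornatus). Over all genes they called 270 higher and 22 lower there (61 and 63 with TMM), 190 and 23 for mean heat (85 and 73), 2008 and 2768 for hybrids against U. ornatus (2893 and 2687), and 1616 and 2828 for U. graciosus against U. ornatus (2541 and 2559). No paired analysis was possible because each animal was held at a single temperature and each replicate letter belongs to a single group. With 3 animals a group, the 95% interval of a heat difference was wide, as given for ATP5F1B.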
